A study of Mus musculus with 10 samples.

Results

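The genes described here are 7 components of the hydrogen peroxide- and superoxide-producing oxidases, listed by name out of 56748 gene identifiers: the dual oxidases Duox1 and Duox2, their maturation factors Duoxa1 and Duoxa2, the NADPH oxidase catalytic subunits Nox1 and Nox4, and Cyba, the membrane subunit p22phox. RNA-seq counts came from beta cells sorted by flow cytometry out of pancreatic islets of male NOD mice, an inbred strain with spontaneous autoimmune diabetes, aged 6 to 8 weeks. One group of 5 libraries was untreated (numbered 1 to 5) and the other came from islets cultured with 50 ng/ml lipopolysaccharide (LPS), a bacterial cell wall component, for 48 hours (numbered 6 to 10). LPS was given to whole islets, so that other islet cells were present during exposure and beta cells were sorted only afterwards. The labels call the samples independent without naming the animals behind each, so the spread between libraries may be partly technical. The genes were selected on their counts in LPS against untreated libraries, with that contrast already known. Their values in it are therefore given as a description, without p-values.

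Dual oxidases move electrons from NADPH inside the cell across a membrane to oxygen and release hydrogen peroxide, and each needs a maturation factor, DUOXA1 or DUOXA2, to leave the endoplasmic reticulum. They are best known from the thyroid, where the peroxide serves hormone synthesis, and from airway and gut epithelium, where it takes part in host defence and where DUOX2 is inducible by inflammatory signals. NOX1 and NOX4 are related oxidases that form a complex with p22phox; NOX1 also needs an organizer, an activator and the GTPase RAC1, while NOX4 is active without them.

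The 4 dual oxidase genes lie side by side on mouse chromosome 2, in the order Duox2, Duoxa2, Duoxa1 and Duox1. Duox2 and Duoxa2 are transcribed in opposite directions from facing starts. The stretch before the start of Duoxa2 is shown because it is on the side facing Duox2, and the counts of both genes were high in the same libraries. It is given from RefSeq for GRCm38.p6, plus strand, chr2:122298750-122298899, with a TATAAA match in capitals.
Duoxa2 upstream: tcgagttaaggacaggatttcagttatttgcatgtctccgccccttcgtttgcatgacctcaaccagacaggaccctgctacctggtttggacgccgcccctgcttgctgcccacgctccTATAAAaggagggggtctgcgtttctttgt
The match begins 30 bases before the start, and TATAAA on either strand was found in 13.6% of 32851 promoter windows of 300 bases. The windows of Duox2 and Duoxa2 held no match on either strand to the NF-kB consensus, to the interferon-stimulated response element, to the STAT site TTCNNNGAA, to the C/EBP site TTGCNNAA or to the cyclic AMP response element TGACGTCA. These motifs stood in 8.46%, 3.44%, 8.30%, 10.8% and 1.79% of all windows. Among the other 5 genes, the window of Nox1 held an NF-kB match and that of Nox4 a STAT match. No match says only that these letters are not in this window.

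Duox2 (ENSMUSG00000068452) was almost silent in untreated cells and present in every LPS library. Its counts were 2, 3, 6, 0 and 0 in untreated libraries 1 to 5 and 33, 50, 11, 118 and 308 in LPS libraries 6 to 10. Scaled for library size and composition (CPM), this was 0.0776, 0.121, 0.253, 0 and 0 against 1.61, 1.81, 0.522, 6.33 and 12.8. The groups did not overlap: the lowest LPS library, LPS 8, was above the highest untreated one. The group means were 0.0905 ± 0.105 and 4.60 ± 5.07 CPM (SD, n = 5 each), and the fitted difference was 5.59 ± 0.97 on the log2 scale (SE, edgeR). Even so the gene is of low abundance, and its untreated value rests on 11 counts summed over the group.

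Within the LPS group Duox2 differed widely between libraries. The library with the highest level, LPS 10, held 24.4 times the CPM of the lowest, LPS 8, and 59.2% of all Duox2 counts of the group. The SD divided by the mean was 1.10. Among the 13819 genes tested that averaged at least 1 CPM in LPS libraries, whether called or not, the median of this ratio was 0.120. In 2 of them, Ppargc1a (1.69) and Palld (1.16), named after their values were seen, it was larger than in Duox2. The 3003 of these genes at 2 to 10 CPM, a range that includes Duox2, had a median ratio of 0.184. Without LPS 10 the ratio of Duox2 was 1.00, and 5 genes of the 13819 exceeded it. These ranks are a description of 5 libraries and carry no test. The group ratio of summed Duox2 counts, LPS over untreated, was 51.7 with all libraries and 26.9 without LPS 10 (95% exact interval of the latter 14.7 to 54.7, counting error only).

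**Figure D1:**
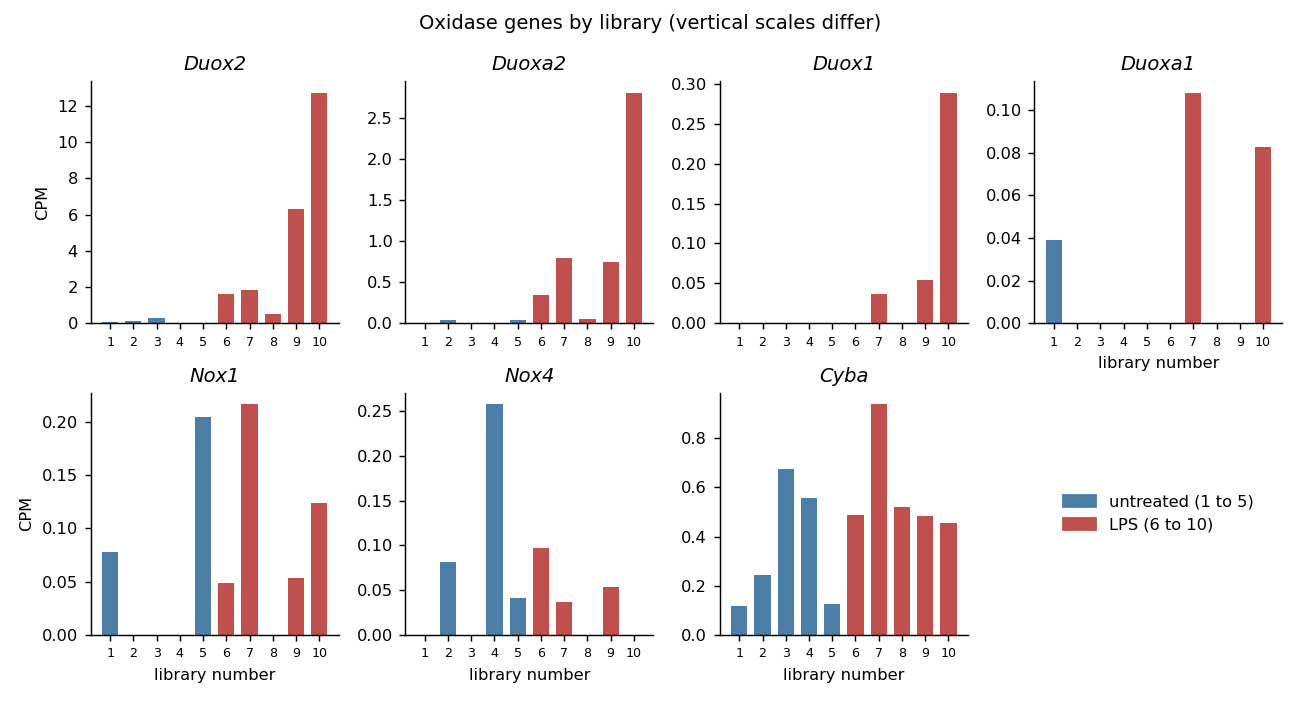
Bars give the CPM of each of the 7 genes in each library, untreated 1 to 5 in blue and LPS 6 to 10 in red, on a separate vertical scale per gene. Duox2 and Duoxa2 are high in LPS 10 (12.8 and 2.81 CPM) and lowest among the LPS libraries in LPS 8 (0.522 and 0.0475 CPM), while Nox1, Nox4 and Cyba overlap between the groups.

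**Figure D2:**
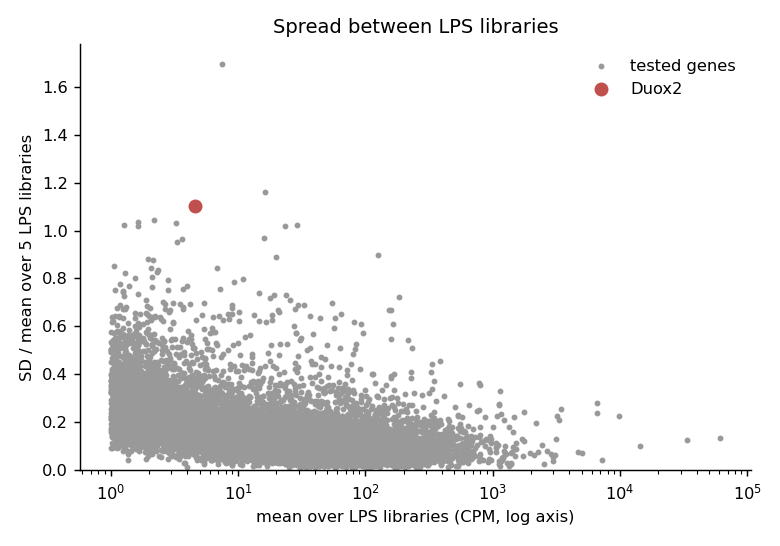
Each point is 1 of the 13819 genes tested with a mean of at least 1 CPM in LPS libraries; the horizontal axis is the mean over the 5 LPS libraries in CPM (log axis) and the vertical axis the SD divided by that mean. Duox2, in red, stands at 1.10, against a median of 0.120, and 2 genes lie above it.

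Duoxa2 (ENSMUSG00000027225), whose product brings DUOX2 to the cell surface, had the same pattern at fewer counts. There were 0, 1, 0, 0 and 1 counts in untreated and 7, 22, 1, 14 and 68 in LPS libraries. The CPM reached 0.0410 at most in the untreated group and were 0.341, 0.795, 0.0475, 0.751 and 2.81 in LPS 6 to 10. The groups were separate, but LPS 8 stood just above the highest untreated library, each of them with 1 count. Summed counts were 2 and 112, a ratio of 61.2 (95% exact interval 16.6 to 512, counting error only), and 30.7 without LPS 10 (8.01 to 262). With so few counts Duoxa2 did not pass the filter on low counts (about 10 counts in 5 libraries) and was not among the genes tested.

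Duox2 and its factor ran together through the LPS libraries, though not in a fixed proportion. LPS 10 was the highest and LPS 8 the lowest for both, and LPS 9 and LPS 7 changed places in between. Per kilobase of exon, the summed Duoxa2 counts of the LPS group were 0.916 times those of Duox2. This ratio was 0.902 in LPS 6, 1.87 in LPS 7, 0.387 in LPS 8, 0.505 in LPS 9 and 0.939 in LPS 10, with the value of LPS 8 resting on 1 Duoxa2 count. Of the 1592 exon bases of Duoxa2, 42.8% also belong to exons of Duoxa1 on the other strand in GENCODE M21. Reads there may have been counted for neither gene or for the wrong one, since use of strand in counting is not given in the sources used here.

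The paralogous pair stayed near the limit of detection. Duox1 (ENSMUSG00000033268) had 0 counts in every untreated library, which allows up to 0.0246 CPM over the group (3 counts, counting error only). In LPS 6 to 10 it had 0, 1, 0, 1 and 7 counts. Set against that limit, the 9 counts of the LPS group were 3.28-fold higher. This takes no account of counting error in the 9 and is not a lower bound. Of these counts 77.8% came from LPS 10, and the 2 left without it were below 3. LPS 10 was also the library with the most Duox2. Transcripts of Duox1 and Duox2 share 415 of the 6862 different 50-base stretches of Duox2, so that some reads cannot be placed on one of the genes. Duoxa1 (ENSMUSG00000027224) had 1 count in untreated 1, 3 in LPS 7 and 2 in LPS 10, and none elsewhere. Its ratio of 5.47 had a counting interval of 0.612 to 259.

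The NOX catalytic subunits were close to absent in both groups. Nox1 (ENSMUSG00000031257), an oxidase of colon epithelium, had 2, 0, 0, 0 and 5 counts in untreated and 1, 6, 0, 1 and 3 in LPS libraries, with overlapping groups and a ratio of 1.72 (95% exact interval 0.608 to 5.23, counting error only). In GENCODE M21, 12.1% of its exon bases also belong to Cstf2 on the other strand. Nox4 (ENSMUSG00000030562), which is constitutively active and prominent in kidney, vessel wall and fibroblasts, had 0, 2, 0, 6 and 1 counts in untreated and 2, 1, 0, 1 and 0 in LPS libraries. Its ratio was 0.486 (0.109 to 1.74). Untreated 4 held 66.7% of the untreated Nox4 counts, and it was also the library with the highest sum of 10 mesenchymal marker genes (95.8 CPM, against 4.68 to 40.3 CPM in the other 9). The summed markers of endothelial cells, which line vessels, were highest there too, at 32.8 CPM against 9.90 to 24.9 CPM in the other 9. The part of such cells in the Nox4 counts was not tested.

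Cyba (ENSMUSG00000006519), the partner that NOX1, NOX4 and the phagocyte oxidase NOX2 share, was low in every library. Its CPM were 0.117, 0.243, 0.675, 0.559 and 0.123 in untreated 1 to 5 and 0.488, 0.939, 0.522, 0.483 and 0.455 in LPS 6 to 10. The groups overlapped, with untreated 3 and 4 inside the LPS range and untreated 1, 2 and 5 below it. The means were 0.343 ± 0.258 and 0.578 ± 0.204 CPM (SD, n = 5 each), a fitted log2 difference of 0.78 ± 0.47 (SE, edgeR). The 2 untreated libraries with the least Cyba, 1 and 5, also had the lowest mesenchymal marker sums of the group, 7.07 and 6.24 CPM against 24.4 to 95.8 CPM in untreated 2 to 4. Among untreated 2 to 4 the order was different. Untreated 3 had 0.675 CPM of Cyba at a marker sum of 24.4 CPM, and untreated 2 had 0.243 CPM at 40.3 CPM. The order also differed in the LPS group, since LPS 6 had 0.488 CPM of Cyba at a marker sum of 4.68 CPM. Whether other cells contributed to the Cyba counts was not tested, and in sorted bulk cells fewer cells of a type and less RNA per cell cannot be told apart.

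**Figure D3:**
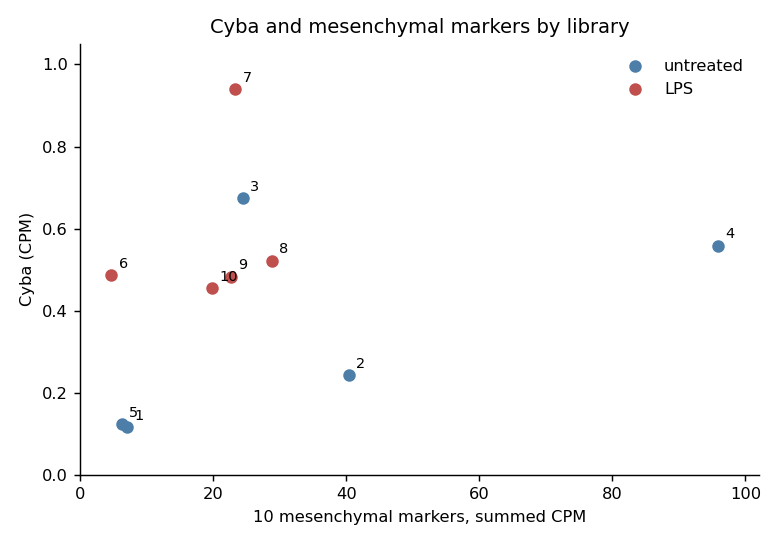
Each point is a library, labelled by number; the horizontal axis is the summed CPM of 10 mesenchymal marker genes and the vertical axis Cyba in CPM. Untreated libraries 1 and 5 lie lowest on the Cyba axis (0.117 and 0.123 CPM) at marker sums of 7.07 and 6.24 CPM, and untreated 4 has the highest marker sum, 95.8 CPM. Untreated 3, with the most Cyba of that group (0.675 CPM), stands at a marker sum of 24.4 CPM.

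Of the 7 genes, only Duox2 and Cyba passed the filter on low counts, and Duox2 did so through the LPS libraries alone. At an adjusted p under 0.05, 1 of the 2 tested, Duox2, was called, against 3.77% of all 15942 genes tested (2.84% called higher and 0.928% lower in LPS). Every LPS library lay above every untreated library for 1 of the 2, Duox2, against 3.84% of genes tested (5.71% in either direction). Duoxa2, which was not tested, was separate as well. Its lowest LPS library and its highest untreated library held 1 count each (0.0475 and 0.0410 CPM). Because the list was made with this contrast known, nothing follows from these counts. Per kilobase of exon the order of the means in untreated cells was Cyba (0.330 ± 0.249 CPM per kb, SD, n = 5), then Nox1 (0.0171), Duox2 (0.0134), Duoxa2 (0.0102), Nox4 (0.00897), Duoxa1 (0.00195) and Duox1 at 0. All but Cyba rest on 0 to 11 counts there, and their neighbours in this order do not differ beyond their spread. In LPS libraries Duox2 (0.680 ± 0.749 CPM per kb), Duoxa2 (0.597 ± 0.683) and Cyba (0.556 ± 0.196) were level within their spread, and the other 4 stayed at or below 0.0268 CPM per kb.

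Genes whose levels varied most like those of Duox2 and Cyba were sought. For this, log2 CPM were taken after removal of each group's mean over the 10 libraries, so that the genes compared share the depth of each library. Among 12027 genes, the 5 whose deviations were most like those of Duox2 were Rnf26 (Pearson r = 0.95), Tsg101 (0.91), Armc10 (0.90), Fkbp1b (0.90) and Tcn2 (0.88). None of these 5 passed the test between the groups. Duoxa2 had an r of 0.80 with Duox2 on the same scale, and a Spearman rank correlation of 0.57. Untreated libraries held 0 to 6 counts of Duox2 and 0 or 1 of Duoxa2. Deviations of Duox2 in that group are therefore near the floor, also in its comparison with the 5 genes above. The genes most like Cyba were Tgfb1 (0.92), Atp9b (0.92) and Sh3pxd2b (0.92), which did not pass the test either. These values describe 10 libraries and carry no test.

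Genes around the Duox cluster did not share its pattern as a block. Of 12 protein-coding neighbours, 6 on each side, 5 were abundant enough to be tested. Of these 5, 1 rose and 2 fell, against 2.84% called higher and 0.928% lower of all genes tested. The gene next to Duox2 is Sord, which encodes sorbitol dehydrogenase. Its mean was 26.1 ± 2.43 CPM in untreated and 20.7 ± 1.22 CPM in LPS libraries (SD, n = 5 each), a fitted log2 change of -0.33 ± 0.08 (SE; adjusted p = 0.0341 in edgeR). All 5 LPS libraries lay below the untreated range, but the call was lost in 6 of 10 fits that left out a library (adjusted p up to 0.0963). Next to Duox1, Shf stood at 2.27 ± 0.722 and 2.31 ± 0.911 CPM and did not pass (0.03 ± 0.29, edgeR adjusted p = 0.978). Gatm, an enzyme gene of creatine synthesis on the Duox1 side, fell from 12.2 to 9.21 CPM (-0.41 ± 0.09, edgeR adjusted p = 0.0191). B2m, the light chain of MHC class I and the fourth gene beyond Duox2, rose from 146.8 to 394 CPM (1.43 ± 0.12, edgeR adjusted p = 2.72e-05). Spg11, the farthest neighbour on the Duox2 side, stood at 54.2 and 52.5 CPM and did not pass. The neighbours too low to be tested had at most 10 counts in either group, among them AA467197 with 0 counts in untreated and 10 in LPS libraries, named after its values were seen. Spata5l1 matched no identifier.

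The other parts of an NADPH oxidase were unequally present. Of 14 partner and regulator genes 5 were tested and none passed in edgeR, DESeq2 or limma-voom, with 1 of 5 at an unadjusted p under 0.05 in edgeR, against 15.3% of all genes tested. Rac1, the GTPase that activates NOX1 and NOX2, stood at 126 ± 4.90 and 133 ± 6.26 CPM (SD, n = 5 each), with a fitted log2 change of 0.08 ± 0.06 (SE; adjusted p = 0.559 in edgeR). Poldip2, a NOX4-binding protein gene, stood at 45.8 ± 5.01 and 46.0 ± 2.59 CPM. Noxo1, the organizer of NOX1, was named after its value was seen: it had 8.56 ± 2.14 and 11.4 ± 2.46 CPM (0.41 ± 0.19, edgeR adjusted p = 0.314). In GENCODE M21 70.4% of the Noxo1 exon bases also lie in Tbl3 on the other strand, which makes its level uncertain. Noxa1, the activator of NOX1, had 4 and 10 counts summed over the untreated and LPS groups.

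The phagocyte oxidase was near 0. Its catalytic gene Cybb had 2 counts over the untreated and 4 over the LPS group, Ncf1 had 16 and 19, and Ncf4 0 and 11, all named after their values were seen. In the marker list of macrophages, all 10 genes had counts, but Cd68 and C1qa made up most of a sum of 29.1 to 42.1 CPM in untreated and 36.4 to 46.9 CPM in LPS libraries, while Adgre1, Itgam and Fcgr1 stayed under 0.03 CPM on average. Of 10 neutrophil markers, 6 were at 0 in all libraries, among them Mpo and Elane, and the summed level was 0 to 0.172 CPM in untreated and 0.215 to 1.33 CPM in LPS libraries. The mean log2 level of the list differed by 0.63 (two-sided exact permutation p = 0.0159, adjusted p = 0.0529 over 10 lists). S100a9 accounted for most of the latter, with 1.28 CPM in LPS 10, the library with the most Duox2, against 0.215 to 0.650 CPM in LPS 6 to 9. The part of such cells in the Duox2 counts was not tested.

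Peroxidases that use hydrogen peroxide for host defence were not detected. Lpo, Mpo and Epx, the secreted and granulocyte peroxidases, had 0 counts in all 10 libraries. Of the 12 genes of peroxidases and halide transport only Pxdn and Ano1 were tested, and neither passed. Pxdn, a peroxidase of the extracellular matrix, had 8.05 ± 1.11 and 10.3 ± 1.86 CPM (SD, n = 5 each), with a fitted log2 change of 0.36 ± 0.14 (SE; adjusted p = 0.207 in edgeR). The chloride channel gene Ano1 had 1.81 ± 0.749 and 2.26 ± 0.471 CPM.

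Xdh, which encodes xanthine dehydrogenase, an enzyme that can form superoxide and hydrogen peroxide, rose. Its CPM were 1.75, 0.891, 0.760, 0.645 and 0.287 in untreated and 3.32, 3.21, 2.18, 4.67 and 3.52 in LPS libraries. The groups did not overlap, and the log2 fold change was 1.95 ± 0.36 (SE, edgeR adjusted p = 0.00658). Its highest LPS library was LPS 9 and its lowest LPS 8. It was 1 of 13 tested among 15 other hydrogen peroxide producers, and no other passed, against 3.77% called of all genes tested. At an unadjusted p under 0.05 in edgeR stood 7 of the 13, against 15.3% of all genes tested. Of these, Xdh, Ero1a and Qsox2 were higher and Maob, Ero1b, Loxl2 and Aox1 lower in LPS libraries. The median log2 fold change of the 13 was 0.06, against -0.01 over all genes tested.

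A list of genes of hydrogen peroxide removal also held the superoxide dismutases, which form hydrogen peroxide from superoxide. Of its 17 tested genes 4 rose and none fell, against 2.84% called higher and 0.928% lower of all genes tested. At an unadjusted p under 0.05 in edgeR stood 8, against 15.3% of all genes tested. The median log2 fold change was 0.18, against -0.01 over all genes tested. Txn1, which encodes thioredoxin, averaged 41.7 ± 0.790 CPM in untreated and 55.2 ± 4.57 CPM in LPS libraries (SD, n = 5 each), a fitted log2 change of 0.40 ± 0.06 (SE; adjusted p = 0.00245 in edgeR). The mitochondrial superoxide dismutase gene Sod2 rose by 0.40 ± 0.07 (edgeR adjusted p = 0.00291) and the glutaredoxin gene Glrx by 0.38 ± 0.08 (edgeR adjusted p = 0.0189; lost without untreated 2 or 3, adjusted p = 0.0556 and 0.0690). Gpx2, an epithelial glutathione peroxidase named after its value was seen, was the fourth (0.54 ± 0.13, edgeR adjusted p = 0.0350) and lost its call in 8 of 10 fits that left out a library. Only 2 genes of the list were called without untreated 2 or without untreated 3. None of 15 genes of NADPH supply passed in edgeR, while DESeq2 called 2 and limma-voom none. At an unadjusted p under 0.05 in edgeR stood 4, against 15.3% of all genes tested. Of these 4, Aldh1l1 and Pgd were higher and Idh2 and Mthfd1 lower in LPS libraries. Of the 15, 12 had a log2 fold change above 0, against 7640 of all 15942 genes tested. Their median was 0.09 on the log2 scale, against -0.01. Pgd, a pentose phosphate enzyme gene named after its value was seen, had 51.5 ± 3.00 and 59.8 ± 2.36 CPM (0.21 ± 0.06, edgeR adjusted p = 0.0672). All its LPS libraries lay above the untreated ones, as did those of 3.84% of genes tested. Idh2 (-0.18 ± 0.08) and Mthfd1 (-0.21 ± 0.06) were the most abundant, with edgeR adjusted p = 0.279 and 0.0576. For Mthfd1 all LPS libraries lay below the untreated ones (108 to 120 against 127 to 140 CPM), as for 1.87% of genes tested.

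**Figure D4:**
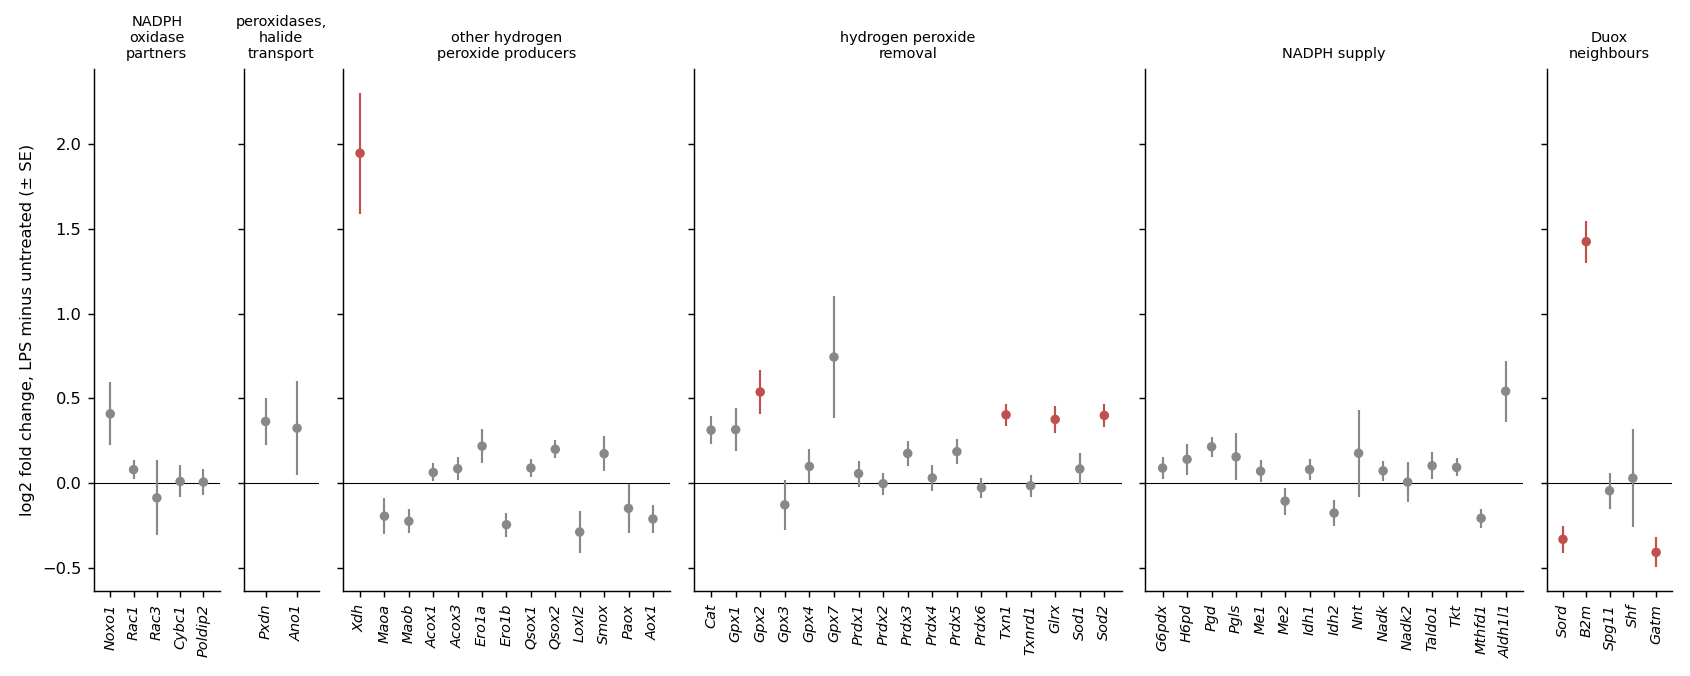
Points give the log2 fold change, LPS minus untreated, with its SE, of the tested genes in 5 lists and of the tested neighbours of the Duox cluster; red points passed an adjusted p of 0.05 in edgeR and grey ones did not. Xdh stands at 1.95 and B2m at 1.43. The 4 called genes of the list of hydrogen peroxide removal, which includes superoxide dismutases, lie between 0.38 and 0.54.

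Library totals ran from 18465188 to 27379892 gene counts. Beta cell markers fell slightly, by 0.29 on the log2 scale as a list mean, and ductal markers were 0.36 higher (two-sided exact permutation p = 0.00794 for each, the smallest the design allows; adjusted p = 0.0397). With 1 library left out the differences stayed between 0.29 and 0.41 for ductal and between -0.31 and -0.26 for beta cell markers. The ductal call was then lost without each untreated library and the beta cell call without untreated 2, 3, 4 or 5 (adjusted p up to 0.0794), in a design of only 126 arrangements. Endothelial markers had the largest shift of the 10 lists, -1.37 (two-sided exact permutation p = 0.0397, adjusted p = 0.0992), with 11.9 to 32.8 CPM in untreated and 9.90 to 14.2 CPM in LPS libraries. The summed ductal markers were 1680 to 2217 CPM in untreated and 2033 to 3062 CPM in LPS libraries. The highest sum was that of LPS 6, where Duox2 was 1.61 CPM, while LPS 10, with the most Duox2, had 2370 CPM and LPS 8, with the least, 2033 CPM. The part of ductal cells in the Duox2 counts was not tested. A gene that matched no symbol in the reference used here, ENSMUSG00000119584, took 0.366 to 0.942% of gene counts in untreated and 0.227 to 0.428% in LPS libraries. With its share as a covariate, added after the data were seen, none of Duox2, Xdh, Txn1, Sod2, Glrx, Gpx2, Sord and Gatm passed, while B2m did. The fold changes of the 6 higher genes of these 8 did not shrink under the covariate, while their SEs grew: on the log2 scale Duox2 stood at 5.61 ± 1.70, Xdh at 2.35 ± 0.60, Txn1 and Sod2 at 0.47 ± 0.10 and 0.47 ± 0.11, Glrx at 0.46 ± 0.13 and Gpx2 at 0.87 ± 0.19. Those of the 2 lower genes were smaller, with Sord at -0.24 ± 0.13 and Gatm at -0.34 ± 0.14. The share itself differed between the groups, so the design confounds it with LPS. From the lost calls or the fitted changes the 2 cannot be told apart.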

How the data were processed

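Raw read counts per Ensembl gene were analysed as deposited by the authors, 1 table per library. Per the submitters' processing notes, the tools were FastQC, Trimmomatic, STAR, SAMtools, HTSeq and DESeq2, on GRCm39. Their versions, the annotation and the strand setting were not given in the sources used here. Reads outside genes (8.84 to 12.9% of all table entries), ambiguous reads (1.40 to 1.61%) and reads placed more than once (4.89 to 6.10%) name no gene and were left out. Of 56748 identifiers 52073 matched a symbol.

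Counts were tested in R 4.3.3 with edgeR 4.0.16 (filterByExpr with minimum count 10 and total 15, TMM, quasi-likelihood F test, no covariate), with Benjamini-Hochberg adjustment over 15942 genes; the step was tested on simulated data. DESeq2 1.42.0 and limma 3.58.1 (voom) were alternatives, as were other scalings, filters and leaving out each library. Marker list means (log2 CPM, prior count 2) were compared by exact permutation with Python 3.11.15 and SciPy 1.17.1. Exon lengths and overlaps are from GENCODE M21 (GRCm38) and promoters from RefSeq (GRCm38.p6, all 7 genes matched); no coordinates were converted. Intervals and floors reflect counting error alone, as several reads may stem from 1 molecule.

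The 7 genes and all lists were chosen with earlier results of these data known. Named besides the 7 were, per list, up to 3 called genes with the smallest adjusted p or else the 2 most abundant, the called and nearest tested neighbours, and the genes most like a tested member.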

Additional observations from a re-analysis of the deposited data

Results flagged for a closer look

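In 46 groups of 5 libraries, a single library stood apart from the other 4 by Dixon's test at the 95% level in 5; chance alone flags about 1 in 20. LPS 10 stood apart for Duoxa2 at 2.81 CPM (68 counts), with the other LPS libraries at 0.0475 to 0.795 CPM, and for Duox1 at 0.290 CPM (7 counts), with the others at 0 to 0.0537 CPM. It also stood apart for B2m at 454 CPM, against 376 to 384 CPM. Duox2 itself was not flagged by this test, since LPS 9 lay between LPS 10 and the rest. LPS 7 stood apart for Cyba at 0.939 CPM, with the others at 0.455 to 0.522 CPM. The flag for Duoxa1 in untreated 1 (0.0388 CPM) rests on a single count.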

How the results depend on the processing

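No paired analysis was possible because the groups share no replicate number. The 601 called genes became 950 with DESeq2, 994 with limma-voom and sample quality weights and 157 with the share of ENSMUSG00000119584 as a covariate, and ranged from 401 to 624 with single libraries left out. The count of called oxidase genes was 1 in all 10 fits without a library, 2 with DESeq2 or no filter on low counts (Duox2 and Duoxa2), and 0 with the covariate or with at least 1 CPM in 5 libraries, a filter that removes Duox2. The log2 fold change of Duox2 ran from 4.73 to 6.36 without single libraries and from 4.38 to 5.66 otherwise, and that of Cyba from 0.50 to 1.17 and from 0.72 to 1.04. Other peroxide producers had 3 calls with DESeq2, 4 with quality weights, 0 with the covariate and 1 to 2 without a library. The list of peroxide removal, with the superoxide dismutases, had 0 calls with the covariate and 2 to 5 without a library. With the covariate the log2 changes of Txn1, Sod2, Glrx and Gpx2 were 0.47, 0.47, 0.46 and 0.87, with larger SEs. NADPH supply had 1 with upper-quartile factors or the 1 CPM filter, 2 with DESeq2 or quality weights and 0 to 1 without a library. Neighbours had 1 call without a filter or with the covariate and 2 to 3 without a library.

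Values near 0 changed sign: Poldip2 (0.01) was -0.0052 with upper-quartile factors, -0.0008 at 1 CPM in 5 libraries and -0.042 to 0.0518 without a library, and Shf (0.03) was -0.23 with the covariate and -0.19 to 0.16 without a library. Without single libraries the marker list differences ran from 0.29 to 0.41 (ductal), -0.31 to -0.26 (beta), -1.82 to -1.19 (endothelial), 0.55 to 0.72 (neutrophil), -0.59 to 0.15 (mesenchymal) and -0.158 to 0.0149 (macrophage). The cause of these changes was not tested.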
